A study of Mus musculus with 12 samples.

Results

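The genes described here are the proteinases and inhibitors that remodel the extracellular matrix in the mouse osteosarcoma lines Dunn and LM8. They are 41 genes chosen by family from all 20144 genes matched to the array, namely 19 matrix metalloproteinases (MMP), 18 secreted proteinases with a disintegrin domain and thrombospondin motifs (ADAMTS) and the 4 tissue inhibitors of metalloproteinases (TIMP). Dunn is a parental osteosarcoma line of low metastatic potential, and LM8 is its metastatic derivative, obtained from Dunn cells by selection in mice. Dunn cells were harvested early at passage 25 and late at passage 86, and LM8 cells at passages 24 and 91. Each of these 4 groups was measured on 3 one-colour Agilent arrays, each hybridised with RNA from cells grown in serum-containing medium and not treated with any agent. Each group is 1 cell line at 1 passage and the sources do not say whether its 3 RNA samples came from separate cultures, so the p-values measure only the spread between these samples, which may be technical. The comparisons ask which genes drift with serial passaging in each line, and which differ between the metastatic and the parental line at both passages.

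Matrix metalloproteinases are zinc enzymes that cleave collagens, gelatin, proteoglycans and other matrix proteins, and most are made as inactive precursors. The ADAMTS proteinases include the aggrecanases and versicanases, which cut large proteoglycans, and the enzymes that trim procollagen. TIMP proteins bind the active site of these enzymes, and Timp2 also bridges the membrane-bound proteinase Mmp14 to the precursor of Mmp2, which Mmp14 then activates. In bone, Mmp13 is the main interstitial collagenase of osteoblasts and hypertrophic chondrocytes.

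The promoters of Timp2, Mmp13, Adamts9 and Timp4 are shown because their genes have large differences among the 41, described below. Of the 41 genes, 27 have a promoter in the RefSeq table used (build GRCm38.p6), which holds 250 bases before and 50 after a transcription start. Capitals mark a match to 1 of 4 motifs searched on both strands, the AP-1 site TGANTCA, the TATA box TATAAA, the Runx site TGTGGT and the GC box GGGCGG. A match on the other strand shows as the reverse complement of these letters. No matches overlap in these sequences.
Timp2 promoter, chr11:118355362-118355661, minus strand: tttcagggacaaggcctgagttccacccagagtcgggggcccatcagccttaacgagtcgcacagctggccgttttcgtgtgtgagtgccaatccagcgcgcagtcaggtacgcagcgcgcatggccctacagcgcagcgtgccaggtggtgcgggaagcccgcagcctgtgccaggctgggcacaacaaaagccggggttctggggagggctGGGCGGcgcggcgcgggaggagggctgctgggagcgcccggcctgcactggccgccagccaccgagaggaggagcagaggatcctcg
Mmp13 promoter, chr9:7272264-7272563, plus strand: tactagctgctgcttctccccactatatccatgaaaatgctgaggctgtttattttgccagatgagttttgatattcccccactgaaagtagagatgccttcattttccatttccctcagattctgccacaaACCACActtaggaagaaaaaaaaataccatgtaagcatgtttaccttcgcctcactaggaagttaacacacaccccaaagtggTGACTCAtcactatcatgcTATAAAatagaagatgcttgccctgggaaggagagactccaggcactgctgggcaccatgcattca
Adamts9 promoter, chr6:92943485-92943784, minus strand: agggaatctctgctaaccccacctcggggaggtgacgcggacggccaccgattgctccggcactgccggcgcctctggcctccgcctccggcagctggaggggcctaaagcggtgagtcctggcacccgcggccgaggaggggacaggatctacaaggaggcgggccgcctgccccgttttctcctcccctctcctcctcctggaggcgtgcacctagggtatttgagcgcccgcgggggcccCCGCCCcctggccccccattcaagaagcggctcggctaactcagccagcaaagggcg
Timp4 promoter, chr6:115252156-115252455, minus strand: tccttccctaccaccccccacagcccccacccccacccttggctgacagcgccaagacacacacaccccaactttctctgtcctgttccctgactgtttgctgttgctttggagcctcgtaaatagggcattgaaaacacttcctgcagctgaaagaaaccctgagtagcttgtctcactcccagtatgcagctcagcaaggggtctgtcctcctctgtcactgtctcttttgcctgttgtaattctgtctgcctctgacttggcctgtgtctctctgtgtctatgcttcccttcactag

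The Mmp13 promoter holds 1 AP-1 match at bases -35 to -29 from the start, 1 TATA box and 1 Runx match, and only 1 CG dinucleotide. The promoters of Timp2 and Adamts9 hold 25 CG dinucleotides each and 1 GC box each, whereas the median of all 32851 promoters in the table is 7. That of Timp4 holds 2 CG dinucleotides and none of the 4 motifs. An AP-1 match occurs in 7.81% of all promoters, a TATA box in 13.6%, a Runx match in 16.8%, a GC box in 35.7%, and an AP-1 match together with a TATA box in 1.54%. Mmp13 lies at one end of a run of metalloproteinase genes on chromosome 9, and 6 of the 7 members in this run have a promoter with both an AP-1 match and a TATA box. The exception is Mmp8, which has a TATA box only. The AP-1 matches of the run are shown with 9 bases on each side, on the plus strand.
Mmp13, chr9:7272470-7272494: ccaaagtggTGACTCAtcactatca
Mmp12, chr9:7347321-7347345: catcaacagTGAGTCAgatagagga
Mmp3, chr9:7445767-7445791: aagcaattaTGAGTCAgttttcggg
Mmp10, chr9:7502270-7502294: gcacccatgTGAGTCAtgcttagtg
Mmp20, chr9:7628127-7628151: tttgagacaTGAATCAtcacttaca
Mmp7, chr9:7692018-7692042: gtgtgcaaaTGAGTCAcctatttcc

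Only part of the family was expressed above background in these cells. The brightest probe was well above background on every array that measured it in at least 1 group for 19 of the 41 genes, and for 12 of them this held in all groups. These 12 were the membrane-bound Mmp14, the gelatinase Mmp2, Mmp11, Mmp17, Adamts1, Adamts5, Adamts10, Adamts15, Adamts17, Timp1, Timp2 and Timp3. The other 7 were Adamts2, Adamts4, Adamts9, Adamts18, Mmp13, Mmp23 and Timp4, which were not above background on every array. The lowest signal that counted as above background differed between arrays, so a gap in detection need not mark a line or passage. The brightest probes of a further 11 genes were not well above background on any array, among them the gelatinase Mmp9 and the macrophage elastase Mmp12. The brightest probes of the remaining 11 were seen on some arrays but on all arrays of no group. A second probe of 1 of them, Adamts14, slightly dimmer on average over all arrays, was above background on all 3 early LM8 arrays. On late Dunn replicate 1 alone, 5 of these 11 were detected (Adamts6, Adamts19, Adamts20, Mmp3 and Mmp8). Along the chromosome 9 run, Mmp13 was above background on 11 arrays, Mmp3, Mmp10 and Mmp8 on 1 array each, and Mmp12, Mmp20 and Mmp7 on none.

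**Figure D1:**
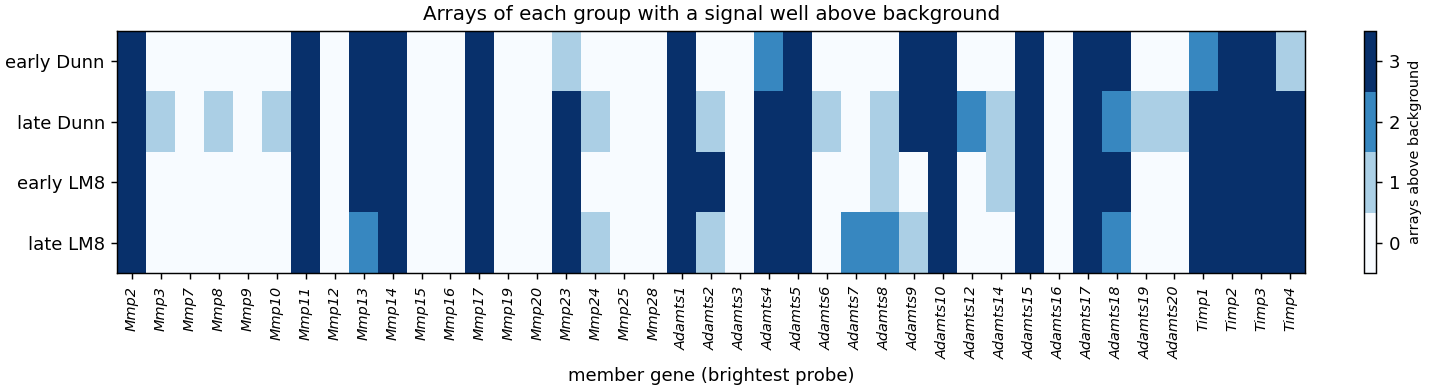
Number of arrays (0 to 3, colour) on which the brightest probe of each of the 41 genes was well above background, for the 4 groups (rows). The MMP, ADAMTS and TIMP genes run from left to right, and Timp1 has 2 measured arrays in early Dunn because its spot on the other array was left out. The 12 genes above background on every measured array are dark in all 4 rows (Timp1 paler in early Dunn), and the 11 genes above it on no array are pale throughout.

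The arrays differed in brightness, and 1 array stood apart by its correlation with its replicates. The 75th percentile of signal ran from 253.1 to 521.6 on early Dunn, 609.1 to 840.4 on late Dunn, 788.2 to 1148 on early LM8 and 1033 to 1699 on late LM8 arrays, and the share of probes above background from 39.1% to 59.7%. Late Dunn replicate 1 correlated with its replicates at 0.919 and 0.923, whereas the other 2 late Dunn arrays correlated at 0.986, and dim probes were raised on it. Early Dunn replicate 1 had the lowest share of probes above background, and undetected genes such as Mmp9 also read higher on it than on its replicates. The lowest detected signal was 32.3 on early Dunn replicate 1 and 36.45 on late Dunn replicate 1, against 9.034 to 16.67 on the others. Each of the 3 slides held 1 array of each group at the same position, so position and group cannot be told apart. Levels below are log2 signals relative to the array's 75th percentile, where 0 is that percentile. On this scale the median of all probes was itself 0.87 lower in early LM8 than in early Dunn (-0.87), and it moved by -0.69 between the late lines, -0.34 in Dunn and -0.21 in LM8 with passage. Of 10 osteoblast marker genes 9 had a probe, all 9 above background on every measured array of at least 1 group, and their summed level lay between 7.84 and 8.42 on the arrays that measured all 9. The osteoclast markers Calcr, Dcstamp and Atp6v0d2, the endothelial markers Cdh5 and Emcn and the epithelial markers Cdh1 and Krt8 were not above background on any array. The leukocyte marker Ptprc and the macrophage marker Adgre1 were above it on 2 arrays each, while Csf1r and Itgam were above it on all 12. The lists of other cell types were thus not absent as a whole. Of the endothelial markers Kdr was above background on all 12 arrays and Pecam1 on 7, of the osteoclast markers Oscar on 9 and Acp5 on 3, and each epithelial marker on 2 arrays at most. Of 4 chondrocyte markers, Col2a1 was above it on all 10 arrays that measured it, with mean levels from 5.72 to 6.80, and Sox9 on 8 of 12. The summed level of the chondrocyte markers ran from 6.73 to 6.88 in early Dunn, 6.17 to 7.01 in late Dunn, 5.78 to 6.03 in early LM8 and 5.43 to 5.91 in late LM8 on arrays that measured them all, and its part in the results was not tested.

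With serial passaging of LM8 cells, 3 of the 41 genes fell and none rose. A gene counted when the adjusted p of limma, over all probes, was under 0.05, the change exceeded 2-fold and the higher group was well above background. By this rule 2.41% of all 20144 genes changed, and 1.53% fell. The inhibitor Timp2 fell most, followed by the collagenase Mmp13 and by Mmp23, an atypical metalloproteinase anchored in the membrane by its N-terminal end. In bulk RNA a smaller share of expressing cells cannot be told apart from less RNA per cell.

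Timp2 had high levels in 3 groups and low levels in late LM8. Its levels were 3.85, 3.58 and 3.80 in early Dunn, 2.80, 2.82 and 3.29 in late Dunn, 2.31, 1.29 and 1.97 in early LM8, and -3.39, -3.89 and -4.91 in late LM8. All 3 late LM8 arrays lay far below the other 9, and still well above background. In signal units the probe read 3917, 2809 and 4236 in early LM8 and 98.82, 114.3 and 41.19 in late LM8. The fall was -5.92 ± 0.45 (SE, log2; n = 3 and 3), 60.6-fold, with an adjusted p of 0.00144. By the ordinary test without the moderation of limma, on the same values, the adjusted p was 0.0502. Within the 3 slides it ran from -6.88 to -5.18. A second Timp2 probe fell by a similar amount (-5.55 ± 0.44, adjusted p = 0.00166). In Dunn the same comparison gave -0.77 with an adjusted p of 0.766, and the second probe -1.02 with 0.747.

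Mmp13 fell in LM8 from a level that was already low. Its levels were 0.22, 0.92 and 0.74 in early Dunn, 0.61, -0.47 and 0.07 in late Dunn, -3.10, -3.36 and -3.45 in early LM8, and -6.65, -6.23 and -6.42 in late LM8. The 2 Dunn groups overlapped, every early LM8 array lay below them, and every late LM8 array lay lower still, with 2 of the 3 above background. The change in LM8 was -3.13 ± 0.21 (SE, log2; n = 3 and 3; adjusted p = 0.0011), 8.77-fold, and ran from -3.56 to -2.87 within slides. Where signals under the highest detection limit of any array, that of early Dunn replicate 1, were set to that limit, it was -0.10 (adjusted p = 0.465). After normexp correction, which models signal plus background, the change was -1.44 (adjusted p = 0.00842). That limit lies near the early LM8 levels, so with it a fall below them could hardly show.

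Mmp23 was higher in early LM8 than elsewhere, apart from 1 array. Its levels were -3.86, -3.86 and -4.41 in early Dunn, -1.80, -4.49 and -4.41 in late Dunn, -1.53, -1.90 and -2.24 in early LM8, and -4.65, -4.96 and -4.88 in late LM8. The late Dunn array that reached the early LM8 range was replicate 1, which stood apart over all probes as described above. The change with passage in LM8 was -2.94 ± 0.24 (SE, log2; n = 3 and 3; adjusted p = 0.00199), 7.66-fold. It was -1.49 (adjusted p = 0.176) with the limit on dim signals, and it had an adjusted p of 0.0662 in 1 fit over all 12 arrays.

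No ADAMTS gene met the rule with passage in LM8 by its brightest probe. The second probe of Adamts14, a procollagen N-proteinase, read -4.84, -4.81 and -5.35 in early LM8 and was not above background in late LM8, a fall of at least 3.23-fold (adjusted p = 0.00643), whereas its brightest probe was above background on 1 early LM8 array only. The 2 probes therefore disagree and Adamts14 is not counted. Adamts2, another procollagen N-proteinase, had levels of -4.80, -4.49 and -4.62 in early LM8 and -5.52, -7.20 and -6.88 in late LM8, with an adjusted p of 0.107. Mmp14 showed no overlap between early (-0.40, -0.60 and -0.29) and late LM8 (-1.15, -1.15 and -1.25), a change of -0.75 ± 0.19 with an adjusted p of 0.132. Mmp11 changed by -0.89 ± 0.19 with an adjusted p of 0.0835. At the thresholds of the study, an unadjusted p under 0.05 and over 2-fold, but with the background condition kept, 5 of the 41 genes were lower in late LM8 (Adamts2 and Adamts18 besides the 3 above) and none higher, against 4.28% of all genes in either direction and 2.32% lower. Without the background condition 9 passed, 7 lower and 2 higher, a count that takes in dim probes and for which the share of all genes was not counted.

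With passage in Dunn cells none of the 41 genes met the rule, which 0.00497% of all genes did. Of them, 3 had an unadjusted p under 0.05 in limma, as did 1458 of 20130 genes tested. Of these 3, 2 also passed 2-fold, Mmp11 and Adamts18, both lower. That is 4.88% of the 41 genes, against 3.93% of all genes in either direction and 2.74% lower, so the count lies near that share. Mmp11, also known as stromelysin 3, had levels of 3.10, 3.10 and 3.53 in early and 2.29, 2.13 and 2.27 in late Dunn, a change of -1.01 ± 0.29 (adjusted p = 0.721). Adamts18, an ADAMTS member with no well-established substrate, had levels of -2.83, -3.39 and -3.02 in early and -3.98, -5.12 and -5.84 in late Dunn, a change of -1.90 ± 0.54 (adjusted p = 0.712). The groups did not overlap for either gene. A second probe of Mmp11 gave -0.76 with an unadjusted p of 0.0696 in limma. The third of the 3 genes was Timp2, with -0.77 and an unadjusted p of 0.0465 in limma. Its second probe passed 2-fold, with -1.02 and an unadjusted p of 0.0196, and the Dunn groups overlapped for neither Timp2 probe. Timp3, the matrix-bound inhibitor, varied little, with levels of 4.03, 4.22 and 4.56 in early Dunn, 4.05, 4.06 and 4.14 in late Dunn, 4.70, 4.06 and 4.34 in early LM8 and 4.16, 3.64 and 3.28 in late LM8. Its change was -0.19 ± 0.30 in Dunn and -0.67 ± 0.30 in LM8 (adjusted p = 0.912 and 0.292).

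**Figure D2:**
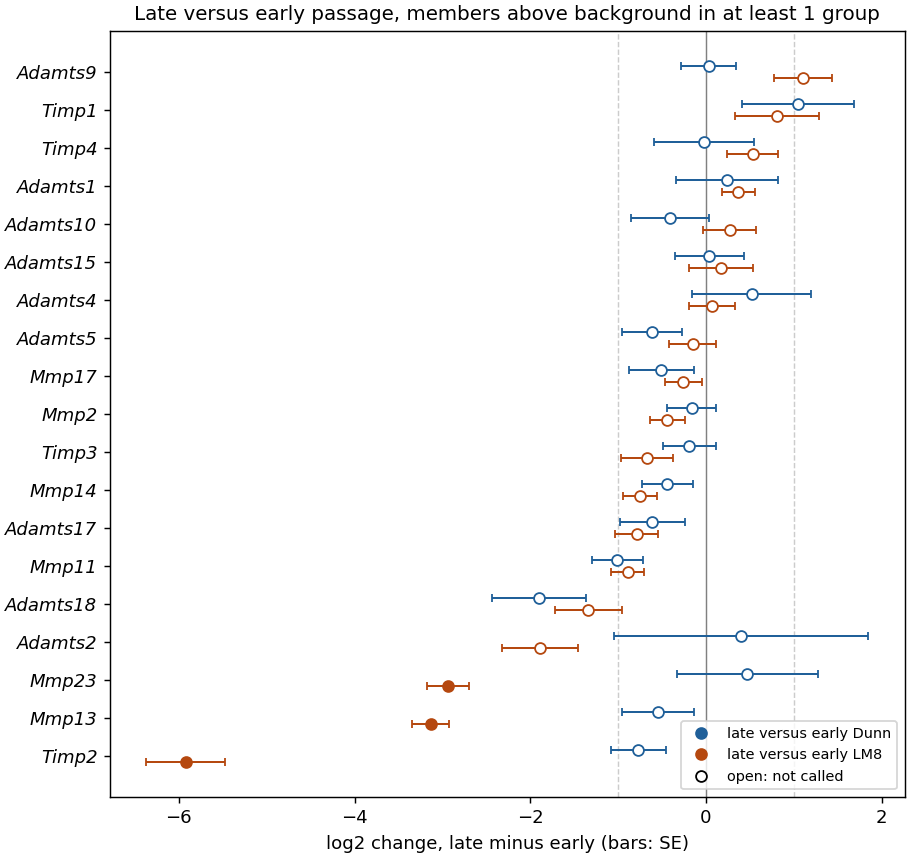
Change with passage (late minus early, log2, x axis) of the 19 genes whose brightest probe was above background in at least 1 group, for Dunn (blue) and LM8 (brown). Points are limma estimates, bars are SE, filled points met the rule, and dashed lines mark 2-fold; the 3 filled points are Mmp23, Mmp13 and Timp2 in LM8, at -2.94, -3.13 and -5.92.

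The change with passage differed between the lines for 2 of the 41 genes, Timp2 and Mmp13, in a fit of line, passage and their interaction over all 12 arrays, which called 0.616% of all genes and 0.258% in this direction. For Timp2 the change in LM8 minus that in Dunn was -5.15 ± 0.57 (log2; adjusted p = 0.00447). For Mmp13 it was -2.58 ± 0.44 (adjusted p = 0.0441), but it turned to 0.45 (adjusted p = 1) with the limit on dim signals, and its adjusted p was 0.592 after normexp correction and 0.106 in the deposited table without scaling. The value with the limit cannot measure this difference, because the limit cut off most of the fall in LM8. With the slide as a block the adjusted p was 0.012 for Timp2 and 0.0909 for Mmp13, so the count was then 1. Leaving out any 1 of 10 of the 12 arrays also left the adjusted p of Mmp13 at 0.05 or over, while the 2 others left it under. Mmp23 had a difference of -3.41 ± 0.87 with an adjusted p of 0.233, and without late Dunn replicate 1 it met the rule, which raised the count to 3.

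Between the lines at early passage, 7 of the 41 genes differed, and 3.42% of all genes did (1.32% higher and 2.11% lower in LM8). Lower in LM8 were Adamts9, Mmp13, Timp2 and Adamts18, and higher were Mmp2, Timp4 and Mmp23. At late passage 6 genes differed, against 3.52% of all genes (1.21% higher and 2.31% lower). They were Timp2, Mmp13 and Adamts9, lower in LM8, and Mmp2, Timp4 and Timp1, higher in LM8. The median change of the 41 genes was -1.34 at early and -1.35 at late passage, and that of all genes -0.77 and -0.57. Over all probes above background on all 12 arrays it was only -0.49 and -0.29. The 41 include 11 genes above background on no array, so their median does not measure a shift of the family. With the slide as a block the counts were 4 (Mmp2, Mmp13, Adamts9 and Timp4) and 1 (Adamts9). The calls lost were those of Timp2, Adamts18 and Mmp23 at early passage (adjusted p = 0.0815, 0.0815 and 0.0765) and of Mmp2, Mmp13, Timp1, Timp2 and Timp4 at late passage (adjusted p from 0.0512 to 0.0917).

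Among the proteinases, Adamts9, a secreted enzyme that cleaves versican and aggrecan, was near background in LM8. Its levels were -2.06, -1.61 and -1.54 in early Dunn, -1.54, -1.76 and -1.80 in late Dunn, -7.61, -8.40 and -8.77 in early LM8, and -7.32, -6.89 and -7.23 in late LM8. It was above background on all 6 Dunn arrays and on 1 of 6 LM8 arrays, late replicate 2. Early LM8 was lower by at least 24.2-fold (adjusted p = 0.000923), and the late lines differed by -5.44 ± 0.24 (adjusted p = 0.00093), a difference taken mostly against undetected signals. In both comparisons the adjusted p stayed under 0.05 in every alternative run, including each array left out, but the size did not hold. It was -1.65 at early and -1.68 at late passage with the limit on dim signals, and -3.12 and -2.83 after normexp correction.

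Mmp2, the gelatinase that Mmp14 activates, was higher in LM8. Its levels were -2.48, -2.42 and -2.30 in early Dunn, -2.71, -2.52 and -2.46 in late Dunn, 0.66, 1.00 and 0.74 in early LM8, and 0.28, 0.27 and 0.54 in late LM8. The spread within each group was small, with SDs from 0.09 to 0.18, and the lines did not overlap. The difference was 3.20 ± 0.29 (9.18-fold, adjusted p = 0.00311) at early and 2.93 ± 0.22 (7.60-fold, adjusted p = 0.00388) at late passage. It was 2.20 and 2.36 after normexp correction and 4.68 and 3.81 without scaling between arrays. Mmp9, the other gelatinase, was not above background on any array, with levels of -5.05, -7.31 and -6.27 in early Dunn, -5.93, -8.15 and -7.89 in late Dunn, -7.81, -8.07 and -8.25 in early LM8 and -8.43, -9.18 and -8.74 in late LM8. At each passage the LM8 values lay below those of Dunn, but none was detected, so no difference in expression is read from them.

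Mmp13 was lower in LM8 by 3.93 on the log2 scale at early passage (-3.93 ± 0.33, 15.2-fold, adjusted p = 0.00261). At late passage the difference was -6.51 ± 0.34 (90.9-fold, adjusted p = 0.00145), and it was -3.46 with the limit on dim signals and -4.27 after normexp correction. Mmp23 was higher in early LM8 by 2.15 ± 0.35 (4.44-fold, adjusted p = 0.0255), with 1 of 3 early Dunn arrays above background. After normexp background correction this difference was -0.14 (adjusted p = 0.84), so its direction was not settled. Adamts18 was lower in early LM8 (-1.84 ± 0.35, adjusted p = 0.0412), with levels of -5.18, -4.47 and -5.09, all below the early Dunn arrays. The difference was -0.35 (adjusted p = 0.703) without scaling between arrays and -0.31 (adjusted p = 0.436) with the limit on dim signals. By the ordinary test without the moderation of limma, the adjusted p of Adamts18 was 0.0628. Its early call was lost without any 1 early LM8 array or without early Dunn replicate 1 or 3 (adjusted p from 0.0582 to 0.196), and that of Mmp23 without any 1 early LM8 array or early Dunn replicate 3 (adjusted p from 0.0906 to 0.132). Late LM8 had levels of -6.82, -6.42 and -5.53, which overlapped late Dunn, and the difference there was -1.28 ± 0.60 (adjusted p = 0.269). Mmp14, the activator of Mmp2, had levels of 0.02, -0.03 and 0.35 in early Dunn and -0.41, -0.18 and -0.40 in late Dunn, and LM8 differed from Dunn by -0.54 ± 0.30 at early and -0.86 ± 0.21 at late passage (adjusted p = 0.194 and 0.11).

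**Figure D3:**
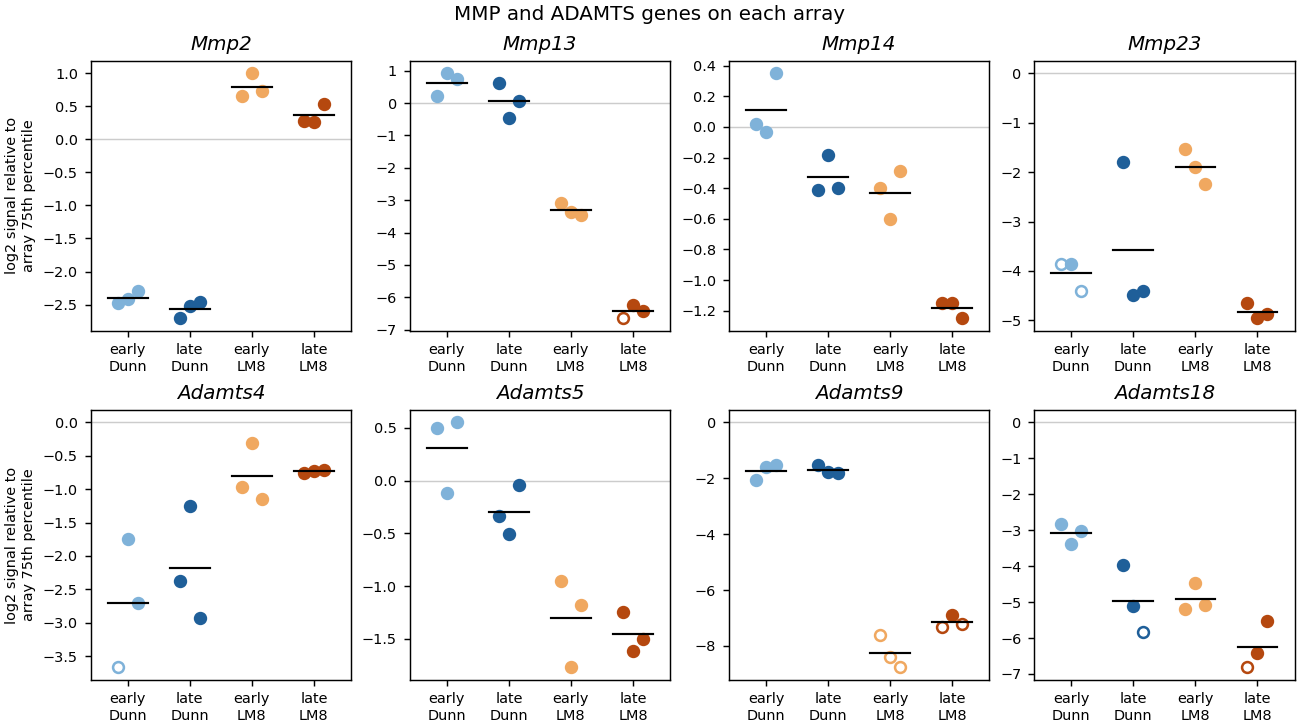
Level of 8 proteinase genes on each array (log2 signal relative to the array's 75th percentile, y axis, own range per gene) in early and late Dunn and LM8. Filled points were well above background, open points were not, and bars are group means; Mmp2 is higher and Adamts9 and Mmp13 lower on all 6 LM8 arrays than on the 6 Dunn arrays.

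The inhibitors moved in different directions. Timp4, an inhibitor with a restricted tissue distribution, had levels of -2.66, -2.50 and -3.96 in early Dunn and -2.29, -3.49 and -3.41 in late Dunn. In LM8 they were 1.22, 0.95 and 0.28 early and 1.43, 1.53 and 1.09 late, so no LM8 array overlapped a Dunn array. The difference was 3.86 ± 0.50 (14.5-fold, adjusted p = 0.0116) and 4.41 ± 0.40 (21.3-fold, adjusted p = 0.00727). Over the alternatives it ran from 2.15 to 5.35 at early and 3.61 to 5.30 at late passage. By the ordinary test without the moderation of limma, the early adjusted p was 0.0565. In early Dunn only 1 of 3 arrays was above background. Without any 1 of the 3 LM8 arrays of that passage the adjusted p of Timp4 ran from 0.0531 to 0.0768 at early and from 0.0561 to 0.0686 at late passage.

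Timp1, a broadly expressed inhibitor encoded on the X chromosome, was also higher in LM8, with a wide spread. Its levels were -1.52 and 0.02 on early Dunn replicates 1 and 3, and the spot of replicate 2 was flagged and left out. They were -0.12, 0.89 and 0.14 in late Dunn, 1.37, 3.05 and 1.35 in early LM8, and 2.47, 3.04 and 2.70 in late LM8. The lines did not overlap at either passage. The difference was 2.67 ± 0.75 at early passage (n = 2 and 3; adjusted p = 0.0738), which did not pass, and 2.43 ± 0.35 at late passage (5.40-fold, adjusted p = 0.0295). Timp2 went the other way. It was lower in early LM8 by -1.88 ± 0.36 (3.69-fold, adjusted p = 0.0435) and in late LM8 by -7.03 ± 0.45 (131-fold, adjusted p = 0.00248). Without scaling between arrays the early difference of Timp2 was -0.40 (adjusted p = 0.631). The late call of Timp1 was lost without any 1 late LM8 array or without late Dunn replicate 3 (adjusted p from 0.118 to 0.178). The early call of Timp2 was lost without any 1 early LM8 array or without early Dunn replicate 1 or 3 (adjusted p from 0.0582 to 0.18). Timp3 differed by 0.10 ± 0.33 and -0.39 ± 0.29 (adjusted p = 0.831 and 0.358).

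**Figure D4:**
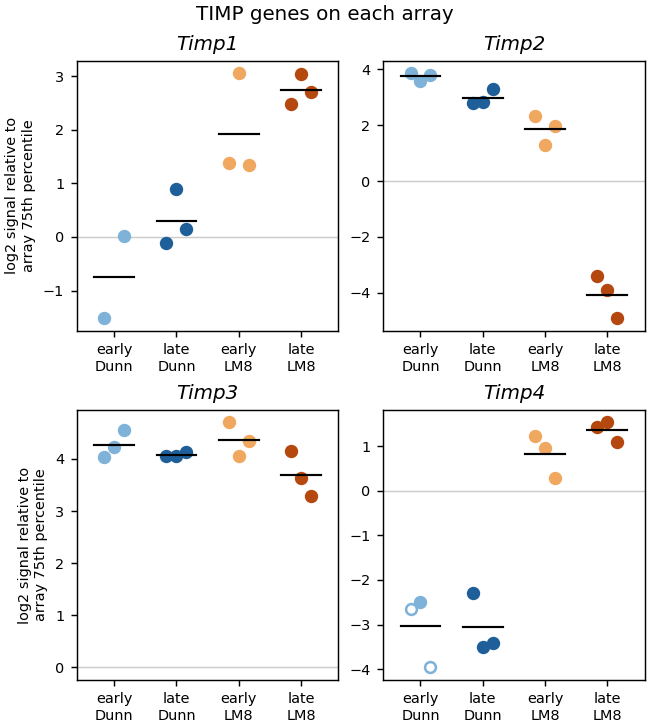
Level of the 4 TIMP genes on each array (log2 signal relative to the array's 75th percentile, y axis, own range per gene) in early and late Dunn and LM8. Filled points were well above background, open points were not, and bars are group means; Timp2 reaches -4.91 in late LM8, Timp1 and Timp4 are higher in LM8, and Timp3 lies between 3.28 and 4.70 throughout.

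When the passages were pooled, with 6 arrays of each line, 9 of the 41 genes differed and 9.44% of all genes did (4.17% higher and 5.27% lower in LM8). Higher in LM8 were Timp4 (4.14), Mmp2 (3.06), Timp1 (2.45), Adamts4 (1.68) and Adamts1 (1.01), and lower were Adamts9 (-5.98), Mmp13 (-5.22), Timp2 (-4.46) and Adamts5 (-1.38), all as log2 differences. Adamts4 had levels of -3.67, -1.75 and -2.70 in early Dunn, -2.37, -1.25 and -2.93 in late Dunn, -0.97, -0.31 and -1.14 in early LM8 and -0.75, -0.73 and -0.71 in late LM8 (adjusted p = 0.00916). Adamts5 had levels of 0.50, -0.12 and 0.55 in early Dunn, -0.34, -0.51 and -0.04 in late Dunn, -0.95, -1.77 and -1.18 in early LM8 and -1.24, -1.61 and -1.50 in late LM8 (adjusted p = 0.00267). For both genes the 6 arrays of LM8 lay apart from the 6 of Dunn, though neither met the rule at a single passage. A second, dimmer probe of Adamts5 gave 0.35 ± 0.62 at early and 0.05 ± 0.38 at late passage, so the 2 probes disagree, and without scaling between arrays the pooled difference of the brighter probe was -0.19 (adjusted p = 0.574). Adamts1, a proteinase of aggrecan and versican, had levels of 1.24, 2.20 and 3.09 in early Dunn, 1.86, 2.86 and 2.53 in late Dunn, 3.24, 3.07 and 3.04 in early LM8 and 3.34, 3.50 and 3.62 in late LM8 (adjusted p = 0.0285). Early Dunn replicate 3 reached the LM8 range, and the adjusted p was 0.05 or over without late Dunn replicate 1 or without late LM8 replicate 2 or 3. Timp2 and Mmp13 have large passage effects inside LM8, so their pooled values average unlike groups. The pooled call of Timp2 was lost without early Dunn replicate 3 or without late LM8 replicate 2 or 3 (adjusted p from 0.0525 to 0.0596).

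**Figure D5:**
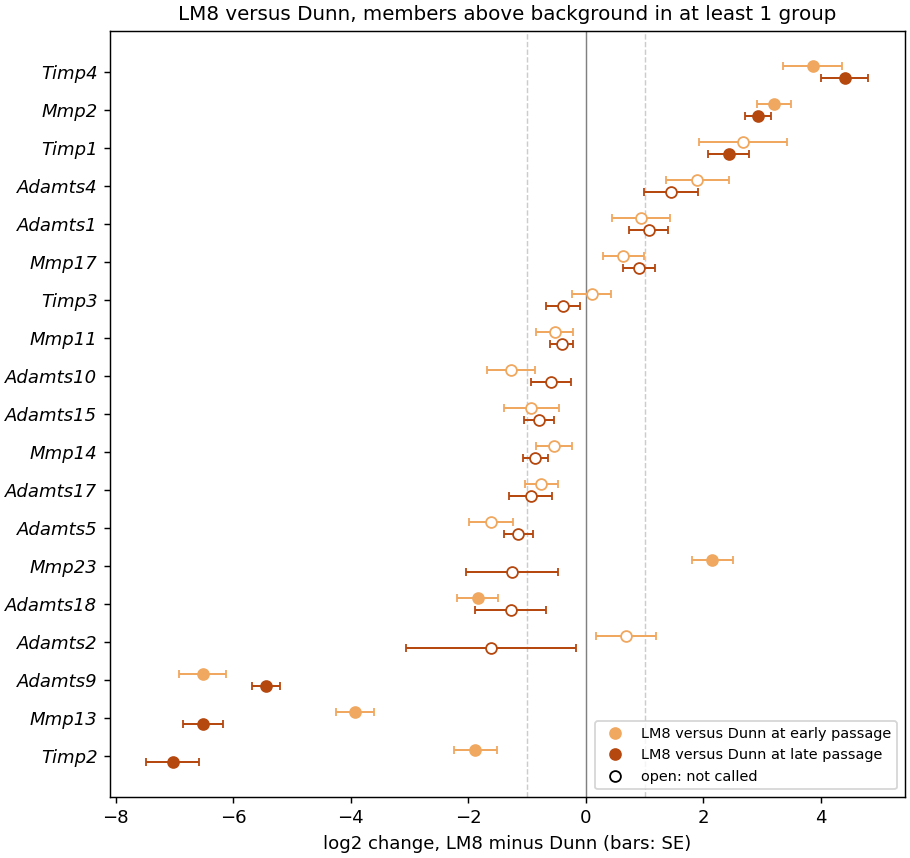
Difference between the lines (LM8 minus Dunn, log2, x axis) of the 19 genes whose brightest probe was above background in at least 1 group, at early (light) and late (dark) passage. Points are limma estimates, bars are SE, filled points met the rule, and dashed lines mark 2-fold; Mmp2 and Timp4 lie near 3 to 4 at both passages, and Timp2 moves from -1.88 to -7.03.

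Of 36 genes listed (plasminogen activators, membrane ADAM proteinases, cathepsins and regulators), 35 had a probe, and with passage in LM8 only Ctsk, the collagen-degrading cathepsin K, fell (-5.22 ± 0.31, adjusted p = 0.000765), which is 2.86% of the 35 against 2.41% of all genes. Between the lines at early passage 3 of 35 differed, 8.57% against 3.42%. They were the heparan sulphate-cleaving Hpse (3.61, adjusted p = 0.0452) and Ctsk (3.04, adjusted p = 0.00448), higher in LM8, and the serine proteinase Htra1 (-1.97, adjusted p = 0.0317), lower. At late passage 1 of 35 did (2.86% against 3.52%), Hpse (4.11, adjusted p = 0.00802). With the passages pooled 4 did (11.4% against 9.44%), Hpse and Furin higher and Htra1 and Cst3 lower. None met the rule in Dunn with passage. Of 6 proteoglycans and glycoproteins that these enzymes cleave, the cartilage protein Comp was lower in late LM8 than in late Dunn (-2.68 ± 0.41, adjusted p = 0.0362), and no other met the rule in that comparison, nor any with passage.

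Of 10 transcription factors known from metalloproteinase promoters (the AP-1 family, Ets1, Ets2 and Runx2), Fosl1 and Ets1 fell with passage in LM8 (-2.14 ± 0.19 and -1.60 ± 0.20, adjusted p = 0.00251 and 0.0101), where 2.41% of all genes changed. Fosl1 belongs to the factors that bind the AP-1 site printed above for Mmp13. Its mean level was -3.37 in early and -5.03 in late Dunn, and -2.87 in early and -5.01 in late LM8. Those of Mmp13 were 0.62, 0.07, -3.30 and -6.44 in the same order. Fosl1 was thus about as low in late Dunn as in late LM8, and it was above background on 2 of 3 arrays of each Dunn group. Between the lines only Ets1 met the rule, with -3.46 ± 0.33 at early and -4.31 ± 0.27 at late passage (adjusted p = 0.00386 and 0.00239), where 3.42% and 3.52% of all genes did, and none of the 10 did in Dunn with passage. Their part in the levels of the proteinases was not tested.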

How the data were processed

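RNA of early and late Dunn and LM8 cells was hybridised to 12 Agilent mouse 4x44k arrays, and per the labels the images were read with Agilent Feature Extraction 10.7.3. The authors deposited its output for each array, from which the processed signal was used, an intensity after background subtraction with no scaling between arrays. A deposited series table holds the same intensity rounded (largest difference 0.497%) and was used as an alternative.

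Controls and outlier-flagged spots were dropped, 43020 spots were averaged into 39429 probes, and each array's 75th percentile of log2 signal was subtracted. Probe accessions were matched to RefSeq genes (GRCm38.p6, names and neighbours only), which named 26581 probes (67.4%) for 20144 genes and all 41 genes described. A gene is represented by its brightest probe over all arrays. A level was well above background where the scanner software said so, and a fold is given as "at least" where the dim group was above background on no array, against the higher of its own signal and each array's lowest detected signal.

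Groups were compared with limma 3.58.1 (lmFit and eBayes) in R 4.3.3, on the arrays compared only, with Benjamini-Hochberg adjustment over all probes, after tests on simulated data. Alternatives were quantile normalization, normexp correction (offset 50), a floor on dim signals, the deposited table without scaling, testing detected probes only, no background condition, the mean of a gene's probes, 1 fit over all 12 arrays, the slide as a replicate block, an ordinary t-test in place of the moderated test of limma and each array left out. The scanner files hold no mean signal, so normexp used median signal and median background.

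The replicate number marks the slide. Over 18 pairs of arrays on 1 slide, deviations from group means correlated from -0.23 to 0.683. They correlated at 0.683, 0.641 and 0.222 between the 2 Dunn passages, and at 0.281, -0.0103 and 0.134 between those of LM8. The main comparisons took no account of this pairing, which entered only the alternative with the slide as a block.

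The 41 genes and the other lists were chosen with earlier results of these data known. Values on every array are given for members that met the rule in a comparison and for Mmp2, Mmp9, Mmp13, Mmp14 and Timp1 to Timp3, and for other genes up to 3 of those that met it in each direction. Arrays give no read depth, and their number limits the precision. Plots were drawn with matplotlib 3.10.9. Human lines and copy number arrays were not analysed here.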

Additional observations from a re-analysis of the deposited data

Results flagged for a closer look

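The change with passage differed between the lines for Timp2 by -5.15 on the log2 scale (late minus early, LM8 minus Dunn; adjusted p = 0.00447) and for Mmp13 by -2.58 (adjusted p = 0.0441), each by the interaction term of a limma fit over all 12 arrays. The difference of Timp2 kept an adjusted p under 0.05 in 20 of 20 alternatives, whereas that of Mmp13 did in 6 of 20. The Mmp13 difference turned to 0.45 with a floor on dim signals, which cut off most of its fall in LM8. All 3 late LM8 arrays lay below all 3 early ones for both genes. Groups of 3 arrays are too small for a test of single arrays that lie apart.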

How the results depend on the processing

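Of 494 values of single genes recomputed under an alternative, for 27 differences, 426 kept their direction and an adjusted p under 0.05, 66 kept the direction only and 2 reversed, and 11 of the differences kept both under every alternative. The 2 that reversed were Mmp23 between the early lines after normexp correction (-0.14), whose cause was not tested, and the interaction of Mmp13 with a floor on dim signals (0.45). The floor lay near the early LM8 levels of Mmp13 and cut off most of its fall, so the latter value cannot measure that fall. The count of genes that changed with passage in LM8 was 1 with the floor. At an unadjusted p under 0.05 it was 3 after normexp, 2 with the floor and 9 without the background condition, and for Dunn it was 1 after quantile normalization, 1 after normexp, 0 in the deposited table, 1 with the floor and 1 with the mean of a gene's probes. Between the early lines it was 4 with the floor, 11 with the filter on dim probes, 3 by the ordinary t-test and 4 with the replicate block. Between the late lines it was 1 with the replicate block, and for pooled passages 23 without the background condition, which then counted dim probes. By that looser rule 6483 of 20143 genes passed. The interaction count was 1 after normexp, in the deposited table, with the floor and with the replicate block. The block changed no other count by over 1.5 times.

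In the deposited table, without scaling, 8 of 41 genes were higher and 2 lower between the early lines, against 3 and 4 after scaling, and the median of all probes moved by 0.62 in place of -0.87. The share of all genes that met the rule without scaling was not counted. With 1 array left out, the counts ran from 0 to 0 in Dunn and 1 to 2 at an unadjusted p under 0.05, 3 to 4 in LM8 and 5 to 6 at that level, 3 to 11 between the early lines, 4 to 9 between the late lines, 7 to 10 pooled and 1 to 3 for the interaction. The early lines gave 11 without early Dunn replicate 2, 4 without early Dunn replicate 3, and 3 without any 1 early LM8 array. The late lines gave 9 without late Dunn replicate 1 (Adamts5, Adamts12 and Mmp17 were added). For members not above background on the arrays, a low level is a bound only.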

Other observations

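The 3 nearest protein-coding genes with a probe on each side of 7 of the genes described (order from RefSeq, GRCm38.p6) were read in the same fits. Beside Timp2, Lgals3bp, which encodes a secreted galectin-binding glycoprotein, was lower with passage in LM8 (-3.27, adjusted p = 0.00326) and lower in LM8 than in Dunn at early (-3.51, adjusted p = 0.00544) and late passage (-6.17, adjusted p = 0.000939), while the other 5 neighbours met the rule in none of these. Of these 5, Cep295nl and Dnah17 were above background on only 1 and 2 arrays, so they could hardly meet it. Cep295nl changed by -2.16 with passage in LM8 (adjusted p = 0.0266). Next to Adamts9, Magi1, a scaffold protein of cell junctions, was lower in LM8 at both passages (-7.77 and -8.97, adjusted p = 0.00124 and 0.00167). Next to Timp4, which was higher in LM8, Pparg, a nuclear receptor of fat cells, was lower (-6.70 and -5.99, adjusted p = 0.000455 and 0.000778). Timp1 lies within Syn1, a synaptic vesicle gene, which was higher in LM8 at both passages (2.51 and 3.23, adjusted p = 0.0181 and 0.0188), as was its neighbour Usp11, a deubiquitinating enzyme (7.33 and 6.48, adjusted p = 0.000899 and 0.0083). Magi1 was above background on 7 of 12 arrays and Usp11 on 6, so the sizes for these genes were taken mostly against undetected signals. No neighbour of Mmp2, Mmp13 or Mmp23 met the rule in any of the 4 comparisons, but the rule requires detection. Of the 6 neighbours of each, 2 for Mmp2, 4 for Mmp13 and 6 for Mmp23 were above background on any array. On all 12 arrays it was 2, 1 and 4. Neighbours that were not detected could not meet the rule. Whether neighbours share a cause was not tested.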
